A study of Homo sapiens with 3 samples.

Results

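The 9 genes described here, CDH2, CTNNA3, DSP, DSG2, PKP2, JUP, GJA1, GJA5 and GJC1, encode proteins of the intercalated disc and of gap junctions. They were chosen by name, for what their proteins do, and all 9 were found among the 32738 genes of the merged table of unique molecular identifiers (UMIs, each counting 1 captured RNA molecule). The data came from human chambered cardiac organoids (CCOs) grown from H7, a single human embryonic stem cell line, and were collected by droplet RNA sequencing of 3′ ends with 1 library at each of D8, D14 and D21. Cells were driven towards the heart by activating and then inhibiting WNT signalling and were aggregated in Matrigel on the day before the earliest library. D8 and D14 organoids were kept in a cardiosphere growth medium with added growth factors, Wnt-3A and endothelin-1 among them, and D21 organoids had moved after D14 to RPMI with B27 in a spinner flask. The labels name the sequenced material only as organoid, no genotype and no treatment other than this change of culture separated the libraries, and organoids were dissociated together into a cell suspension.

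Cardiomyocytes (CMs) are joined end to end at the intercalated disc. Adherens junctions there anchor the contractile filaments of neighbouring cells, desmosomes anchor the intermediate filaments, and in heart muscle the adherens and desmosomal proteins mix in a composite junction called the area composita. Gap junction channels, built from connexins, carry the electrical impulse from cell to cell. In early heart muscle these proteins are spread over the cell surface and gather at the cell ends only later, a feature of protein position that RNA counts do not measure.

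Between 1946 and 3585 cells per library passed the filters, with 4007 to 95021 UMIs each and medians of 15316 (D8), 12282 (D14) and 14105.5 UMIs (D21). With 1 library for each day, differences between days, between libraries and, at D21, in medium and spinner culture cannot be told apart. For this reason neither days nor classes were tested, and every interval given is a 95% interval that covers counting error only. At D21, 1982 of the 3928 barcodes within the gene limits had 10% or more mitochondrial UMIs and were left out, against 11 at D8 and 204 at D14. A total of 136 barcode sequences occurred in more than 1 library, 33 of them among kept cells. Cells were clustered without the 9 genes, and clusters were named only where marker genes were clear. CM-like cells numbered 490, 676 and 538 on the successive days, with all 8 CM markers detected, and came from different clusters on each day, namely cluster 5 (D8), cluster 4 (D14, with 7 cells of cluster 5) and clusters 6 and 18 (D21). Their median depth was 14430, 12775 and 12778.5 UMIs, and their median mitochondrial share was 2.83%, 5.44% and 8.42%. The other named classes were fibroblast-like cells (cluster 10, named on 3 markers, at D14 and cluster 1 at D21), endothelial-like cells (47, 53 and 38 cells) and dividing cells. Remaining clusters are called by number. Clusters 8 and 11 were led by genes of endoderm and liver, such as TTR and APOA2 in cluster 8 and SERPINA1 and AHSG in cluster 11.

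Levels are given as CPM, the UMIs of a gene in every 1000000 UMIs of the cells concerned. A UMI is counted once however long the transcript, so levels of different genes were compared as molecules captured. A difference of 2-fold or more was used as the mark of size for genes that reached 10 CPM in at least 1 of the groups compared, a limit that 8 of the 9 members met in every comparison and GJA5 in none.

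The adherens junction genes CDH2 and CTNNA3 were the members at least 2-fold higher at D14 than at D8 in CM-like cells. CDH2 encodes N-cadherin, the cadherin that holds CMs together. D8 cells held it at 89.3 CPM (82.9–96.2, 710 UMIs), D14 cells at 261 CPM (251–272, 2467 UMIs) and D21 cells at 227 CPM (217–239, 1652 UMIs). D8 thus stood apart from both later days, by 2.93-fold at D14, a log2 ratio of 1.55 (1.43–1.67). Between D14 and D21 the log2 ratio was -0.20 (-0.29 to -0.11), and it took the other sign under TMM scaling, at 0.02, and under median-of-ratios scaling, at 0.03. CTNNA3 encodes alpha-T-catenin, which links cadherin complexes to actin and, through plakophilin-2, to desmosomal proteins. It was at 18.6 CPM (15.7–21.9), 42.6 CPM (38.5–47.0) and 63.6 CPM (57.9–69.7) on the 3 days, so that each day was above the one before it, by a log2 ratio of 1.19 (0.92–1.48) at D14 over D8 and 0.58 at D21 over D14. When every cell was thinned to 4000 UMIs, the share of CM-like cells with a CDH2 UMI was 30.4%, 63.3% and 60.0%, and the share with a CTNNA3 UMI was 8.98%, 17.6% and 20.3%. Without thinning these shares were 63.5%, 93.0% and 90.0% for CDH2 and 24.1%, 43.2% and 53.3% for CTNNA3. In thinned endothelial-like cells, a class in which CTNNA3 would be background, 0 of 47, 0 of 53 and 0 of 38 cells had a CTNNA3 UMI, which allows shares of up to 6.38%, 5.66% and 7.89% on the 3 days. LRRTM3, a gene nested within CTNNA3, had 14, 26 and 14 UMIs in kept cells. The unthinned median depths of the endothelial-like cells were 14886, 11280 and 13933.5 UMIs.

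The desmosomal genes did not share a pattern over the days. DSP encodes desmoplakin, which ties the desmosome to intermediate filaments, and its levels in CM-like cells were 120 CPM (113–128), 238 CPM (228–248) and 212 CPM (202–223), in the order of the days. Its D14 over D8 ratio of 1.98-fold was just short of 2-fold, and its small D21 over D14 log2 ratio of -0.16 became 0.06 with TMM scaling and 0.07 with median-of-ratios scaling. PKP2, whose product plakophilin-2 connects desmoplakin to the desmosomal cadherins, stood at 156 CPM (148–165), 175 CPM (166–183) and 217 CPM (206–228). PKP2 thus differed by less than 2-fold between any pair of days, with D21 highest. DSG2 encodes desmoglein-2, a desmosomal cadherin of heart muscle. The D8 and D14 levels were 71.9 CPM (66.1–78.0) and 68.8 CPM (63.6–74.3), and the D21 level was 23.3 CPM (19.9–27.0, 169 UMIs), 2.96-fold below D14 with a log2 ratio of -1.56 (-1.82 to -1.32). JUP encodes plakoglobin, which binds cadherins of both desmosomes and adherens junctions, and was at 56.4 CPM (51.3–61.8), 37.3 CPM (33.5–41.4) and 60.3 CPM (54.8–66.2). JUP was therefore lowest at D14, with D8 and D21 not separated by their intervals. Dividing cells were also lowest at D14 (32.4, 21.4 and 38.6 CPM). From D8 to D14 cluster 8 (40.5 and 47.1 CPM) and cluster 13 (37.7 and 52.8 CPM) were not lower. The thinned share of CM-like cells with a DSP UMI was 32.0%, 58.1% and 57.1% (74.5%, 88.0% and 89.4% unthinned), against 23.4%, 26.4% and 13.2% of thinned endothelial-like cells. With a DSG2 UMI it was 25.1%, 25.0% and 8.36% on the 3 days, while that with a PKP2 UMI was 45.5%, 46.7% and 53.5%. Unthinned, the shares were 62.7%, 56.1% and 26.4% for DSG2 and 88.8%, 81.5% and 87.9% for PKP2. Of thinned endothelial-like cells, 19.1%, 15.1% and 7.89% had a DSG2 UMI, so that at D21 the DSG2 share in CM-like cells was within the interval of the endothelial-like share (1.66–21.4%). For PKP2 the endothelial-like shares were 2.13%, 1.89% and 7.89%, below CM-like cells on every day.

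Of the 3 member connexins, GJA1 and GJC1 were read in CM-like cells on every day and GJA5 hardly at all. GJA1 encodes connexin 43, the main connexin of working ventricular muscle, and D8 CM-like cells held it at 41.5 CPM (37.2–46.3, 330 UMIs), D14 cells at 16.5 CPM (14.0–19.3, 156 UMIs) and D21 cells at 42.0 CPM (37.4–47.0, 305 UMIs). D14 was the low day, 2.51-fold below D8 with a log2 ratio of -1.33 (-1.61 to -1.05), and D21 was 2.54-fold above D14 with a log2 ratio of 1.34 (1.06–1.63). Both ratios shrank when the neighbouring D14 cluster 2, which held the 8 CM markers at 25.2% of their summed CM-like level, was counted with the CM-like cells (-0.69 and 0.69), and over all kept cells D21 stood at -0.14 against D14 on the log2 scale. GJC1 encodes connexin 45, a connexin of the early heart and of conduction tissue. Its levels were 22.8 CPM (19.6–26.3), 23.5 CPM (20.5–26.8) and 28.8 CPM (25.0–32.9), with overlapping intervals on all 3 days. The D21 log2 ratio was 0.29 (0.01–0.57) over D14 and 0.34 (0.04–0.63) over D8, both short of 2-fold. GJA5 encodes connexin 40, found in atrial muscle, the fast conduction system and arterial endothelium. No GJA5 UMI was found in CM-like cells at D8 or D14, where 3 counts would have been 0.378 and 0.318 CPM, and 7 UMIs in 7 cells were found at D21 (0.963 CPM, 0.387–1.98). After thinning, 3 of 538 D21 CM-like cells had a GJA5 UMI, or 0.558%, which lies under the 0.98% that 0 of 306 cells allowed in cluster 11. GJA5 in D21 CM-like cells was therefore not distinguishable from background at this depth. The thinned share of CM-like cells with a GJA1 UMI was 16.7%, 5.33% and 14.1%, against 39.2%, 13.6% and 30.7% unthinned, and the thinned share in cluster 11 at D21 was 3.92%, from a median depth of 21929.5 UMIs.

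**Figure D1:**
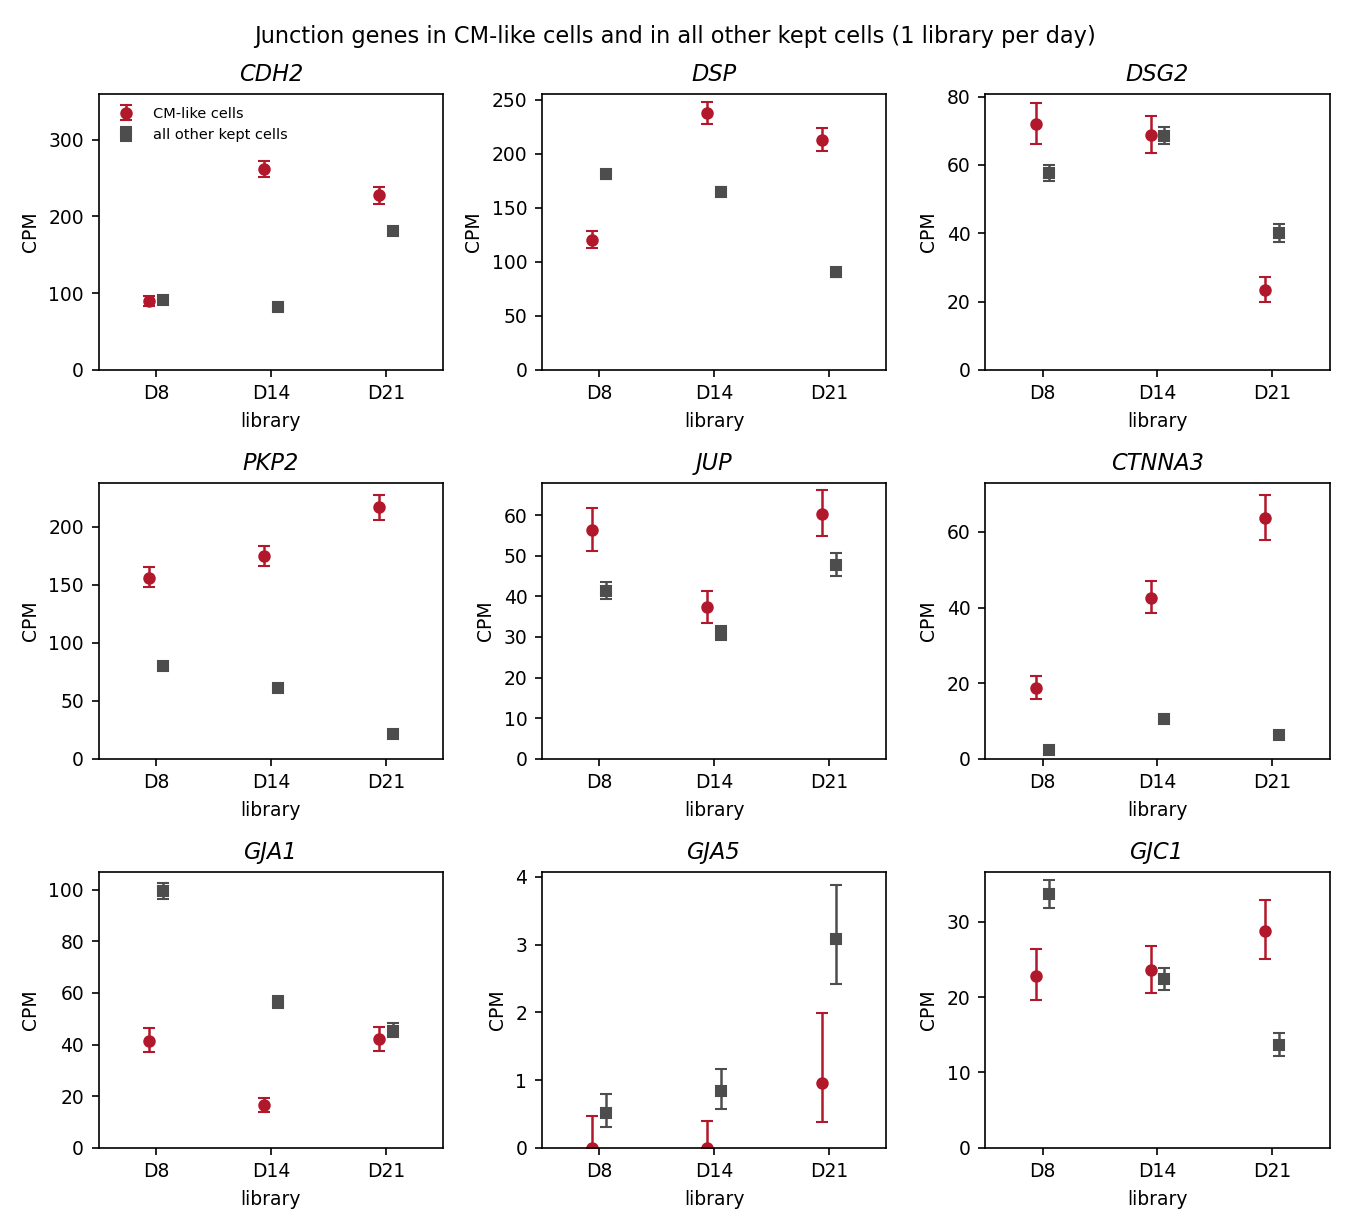
Level of each of the 9 genes (CPM) in CM-like cells and in all other kept cells at D8, D14 and D21, with bars for the 95% Poisson interval of 1 library per day. In CM-like cells CDH2 stands at 89.3, 261 and 227 CPM, DSG2 is lowest at D21 (23.3 CPM) and GJA1 is lowest at D14 (16.5 CPM).

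At D14 over D8, 2 of the 8 members at 10 CPM or more were at least 2-fold higher (CDH2 and CTNNA3), where 10.5% of all 9015 genes compared were, and 1 was at least 2-fold lower (GJA1), where 3.45% of all genes were. At D21 over D14, 1 of 8 was at least 2-fold higher (GJA1), against 4.91% of 9027 genes, and 1 was at least 2-fold lower (DSG2), against 13.8%. Over these comparisons the median log2 ratio of the members was 0.10 at D14 over D8 and 0.30 at D21 over D14, beside medians over all genes of 0.02 and -0.13. The members past 2-fold thus lay on both sides in each comparison. The mitochondrial share of CM-like cells differed between the days as given above, and its part in these ratios was not tested.

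Promoter sequences are shown for DSP, which was read in every class, CTNNA3, which was highest in CM-like cells, and GJA5, which was highest in endothelial-like cells, because these genes differ most in how widely they were expressed. Each is the 250 bases before the listed start in the RefSeq annotation of build GRCh38.p14, a build other than the hg19 of the deposited counts, written 5′ to 3′ along the gene's strand at chr6:7541421-7541670 (+) for DSP, chr10:67696196-67696445 (-) for CTNNA3 and chr1:147773352-147773601 (-) for GJA5. Capitals mark GC boxes (GGGCGG or CCGCCC, so both strands).
DSP: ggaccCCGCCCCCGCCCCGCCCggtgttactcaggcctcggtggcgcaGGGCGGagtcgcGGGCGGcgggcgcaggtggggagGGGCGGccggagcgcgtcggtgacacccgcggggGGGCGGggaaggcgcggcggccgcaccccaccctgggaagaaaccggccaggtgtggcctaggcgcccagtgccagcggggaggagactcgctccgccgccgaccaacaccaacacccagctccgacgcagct
CTNNA3: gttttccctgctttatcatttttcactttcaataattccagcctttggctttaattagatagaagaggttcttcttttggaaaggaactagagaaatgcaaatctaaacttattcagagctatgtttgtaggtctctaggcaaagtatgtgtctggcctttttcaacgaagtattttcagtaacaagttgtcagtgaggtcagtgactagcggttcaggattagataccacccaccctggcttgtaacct
GJA5: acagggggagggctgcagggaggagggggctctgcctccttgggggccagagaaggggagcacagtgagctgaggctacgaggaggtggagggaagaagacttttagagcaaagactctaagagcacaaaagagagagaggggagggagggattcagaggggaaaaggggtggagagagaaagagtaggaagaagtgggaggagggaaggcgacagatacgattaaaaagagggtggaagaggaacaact
DSP held 7 GC boxes at 78% G and C, while the CTNNA3 window had none at 38.8% and the GJA5 window none at 55.6%. Across the 35116 promoter windows of that length the median was 58% and 42.6% held a GC box. Windows were listed for 7 of the 9 members, 11 windows in all, of which 4 held a GC box (also CDH2, DSG2 and JUP). The letters AGATAA, bound by GATA factors, and CAAGTG, bound by NKX2-5, were in 0 of the 11 windows on either strand, against 9.17% and 9.50% of all windows. Only these letters were searched, so other sequences that the same factors bind were not counted. GGAATG, bound by TEAD factors, was in 1 window, at the other GJA5 start, against 11.9%. These matches only describe the letters in the windows, and which start the cells used was not tested.

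Within each day, PKP2 and CTNNA3 were highest in CM-like cells, whereas CDH2 and DSP were shared with other lineages. CTNNA3 in CM-like cells exceeded that in all other kept cells by 7.77-fold at D8 (18.6 against 2.40 CPM), 4.01-fold at D14 (42.6 against 10.6 CPM) and 10.0-fold at D21 (63.6 against 6.35 CPM). PKP2 exceeded the other cells by 1.95-fold, 2.87-fold and 10.0-fold, with the other cells at 80.0, 60.9 and 21.7 CPM. The growing PKP2 contrast thus went with a lower level outside CM-like cells more than with a higher level inside them, but the other cells were different classes on each day. PKP2 was lower later in dividing cells (104, 51.9 and 45.5 CPM) and from D14 to D21 in fibroblast-like cells. From D8 to D14 it was not lower in cluster 8 (46.8 and 52.3 CPM) or cluster 13 (26.6 and 45.9 CPM). In endothelial-like cells it rested on 4, 5 and 8 UMIs (4.90, 7.79 and 13.6 CPM), too few to give a direction. These levels were 3.14%, 4.46% and 6.30% of the CM-like level. The 8 CM markers, used below as a scale of free RNA, were at 1.57%, 2.06% and 6.14% there. The part of the changed mixture was not tested. CM-like cells held 28.6%, 39.9% and 75.5% of all PKP2 UMIs on the 3 days and 61.4%, 48.1% and 75.5% of all CTNNA3 UMIs, against 17.0%, 18.8% and 23.5% of all UMIs. Free RNA from CMs may reach every droplet, and the 8 CM markers give its scale. At D21 cluster 11 held those markers at 4.00% of their CM-like level, CTNNA3 at 4.61% and PKP2 at 7.68%, but CDH2 at 35.6% and DSP at 55.1%. CDH2 and DSP in cluster 11 were thus well above the level of the markers, and CTNNA3 was close to it.

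At D8, 1 of the 8 members at 10 CPM or more was at least 2-fold higher in CM-like than in the other kept cells (CTNNA3), against 6.21% of 8731 genes, and 1 was at least 2-fold lower (GJA1), against 5.85%. At D14, 3 were higher (CDH2, PKP2 and CTNNA3), against 8.9% of 9390 genes, and 1 was lower (GJA1), against 8.4%. At D21, 4 were higher (DSP, PKP2, CTNNA3 and GJC1), against 12.9% of 8974 genes, and 0 were lower, against 15.5%. The median log2 ratio of the members was 0.15, 0.40 and 0.71 on the 3 days, beside 0.08, 0.00 and 0.13 over all genes. CM-like cells had a higher mitochondrial share than any other class on each day, and its part in these contrasts was not tested.

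CDH2 held a different place among the classes on each day. At D8 it was highest in cluster 8 (193 CPM, 182–204), with CM-like cells behind cluster 14. By D14 CM-like cells were highest at 261 CPM, followed by cluster 2 at 165 CPM (157–174), and fibroblast-like cells were at 56.0 CPM (49.4–63.1). At D21 cluster 17 was highest at 274 CPM (244–306), above the CM-like interval. That unnamed cluster held the 8 CM markers at 50.5% of their summed CM-like level. Its 8 fibroblast markers summed to 2956 CPM, between the 252 CPM of the CM-like class and the 5459 CPM of the fibroblast-like class. Whether cluster 17 stands for another lineage or for a mixture of lineages was not tested. Fibroblast-like cells were at 235 CPM (227–245) and dividing cells at 221 CPM (204–238), neither separated from CM-like cells by its interval. CDH2 was therefore 2-fold or more above the other kept cells only at D14, by a log2 ratio of 1.68, and at D8 and D21 the log2 ratios to the other cells were -0.03 and 0.33. DSP was highest in cluster 8 at D8 (436 CPM, 420–452) and at D14 (339 CPM, 323–356). Desmoplakin is a protein of epithelia as well as of heart. Only at D21, a day when cluster 8 was down to a single cell, was DSP highest in CM-like cells (212 CPM), and every other class lay below, from cluster 17 at 158 CPM (136–183) to endothelial-like cells at 37.5 CPM (23.5–56.8).

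DSG2 varied little between classes at D8, from 47.0 CPM in cluster 13 to 75.9 CPM in cluster 8. At D14 the range was 32.8 CPM in cluster 12 to 89.8 CPM in cluster 2. At D21 CM-like cells (23.3 CPM) were below dividing cells at 47.5 CPM (40.1–55.9) and fibroblast-like cells at 45.5 CPM (41.7–49.7), with the ratio to all other cells at -0.78 on the log2 scale. PKP2 was followed by cluster 0 at D8 (112 CPM), cluster 2 at D14 (118 CPM) and cluster 17 at D21 (105 CPM), all outside the CM-like intervals. Its level in fibroblast-like cells was 30.8 CPM (26.0–36.3) at D14 and 10.1 CPM (8.32–12.1) at D21. JUP had its highest level in endothelial-like cells on each day, at 69.9, 62.3 and 88.7 CPM, and the D8 interval of those cells (52.9–90.6) overlapped that of CM-like cells while the D21 intervals almost touched. Plakoglobin is also a partner of VE-cadherin, the cadherin of endothelial junctions.

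**Figure D2:**
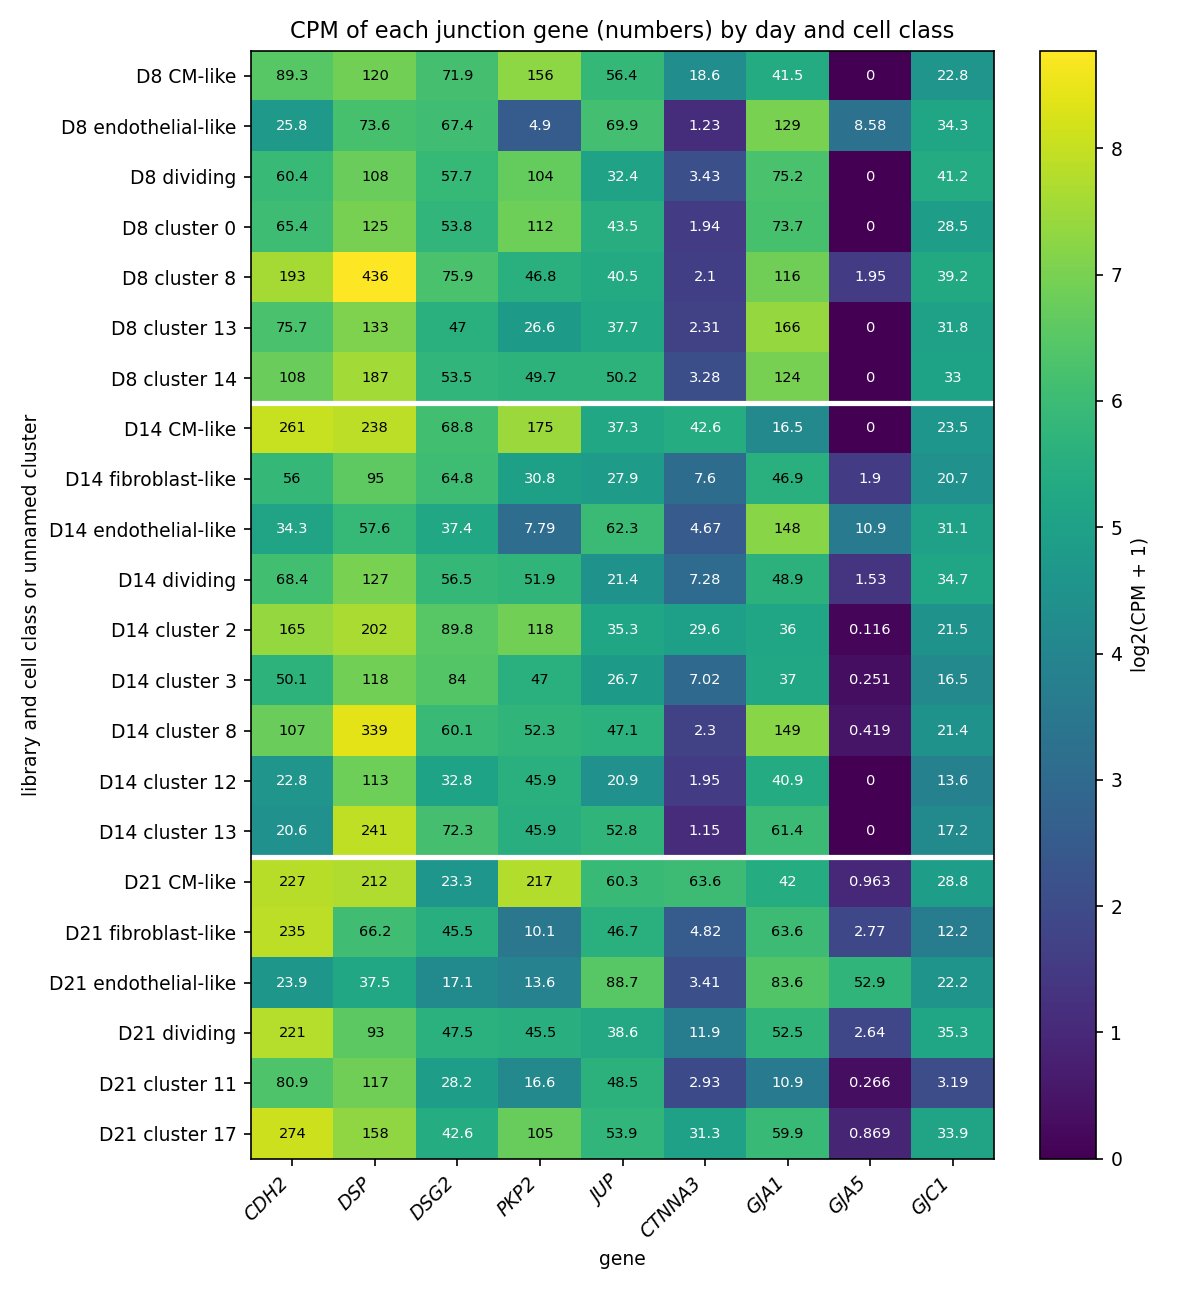
Level of each of the 9 genes (CPM as numbers, colour as log2 of CPM plus 1) in each class or cluster of at least 20 cells at D8, D14 and D21. CTNNA3 and PKP2 are highest in CM-like cells on every day, JUP and GJA5 in endothelial-like cells, and GJA1 in CM-like cells is the lowest of all classes at D8 and D14.

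GJA1 was lower in CM-like cells than elsewhere at D8 and D14. Their level was the lowest of the 7 classes and clusters of D8 and of the 9 of D14, 2.39-fold and 3.42-fold below the other kept cells. The highest levels were in cluster 13 at D8 (166 CPM, 155–177) and in cluster 8 (149 CPM, 138–160) and endothelial-like cells (148 CPM, 120–181) at D14. At D21 endothelial-like cells were highest at 83.6 CPM (61.8–111), CM-like cells were close to the average of the other cells (42.0 against 45.4 CPM), and cluster 11 was lowest at 10.9 CPM (8.68–13.5). No class lay below CM-like cells at D14, so no level of free RNA could be read from another class, and its part in the 16.5 CPM was not tested. GJC1 was highest in dividing cells on every day, at 41.2, 34.7 and 35.3 CPM, with the D21 interval (28.9–42.7) overlapping that of CM-like cells. This lead was not resolved on any day. Intervals also overlapped those of cluster 8 at D8 (39.2 CPM, 34.6–44.2), endothelial-like cells at D14 (31.1 CPM, 19.0–48.1) and cluster 17 at D21 (33.9 CPM, 24.1–46.3). At D21 GJC1 was 2.10-fold higher in CM-like than in the other cells, a log2 ratio of 1.07 that lay below 2-fold in 6 of 17 settings (0.97 under TMM scaling and 0.70 with cells of up to 20% mitochondrial UMIs), with cluster 11 at 3.19 CPM (2.05–4.75) and fibroblast-like cells at 12.2 CPM (10.3–14.5).

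GJA5 had its highest level in endothelial-like cells, in order of day at 8.58 CPM (3.45–17.7, 7 UMIs in 5 cells), 10.9 CPM (4.38–22.5, 7 UMIs in 6 cells) and 52.9 CPM (35.9–75.1, 31 UMIs in 9 cells). Against the limit of 3 counts in CM-like cells these levels were 22.7-fold higher at D8 and 34.3-fold higher at D14. These 2 ratios leave out the counting error of the 7 endothelial-like UMIs of each day. At D21 the ratio was 54.9-fold (23.7–148), but 21 of the 31 UMIs were in a single cell. Without that cell the D21 level was 18.4 CPM (8.84–33.9, 10 UMIs) and the ratio to CM-like cells was 19.1-fold (6.58–59.3), so the higher D21 level rests on 1 cell while the contrast with CM-like cells does not. Endothelial-like cells nevertheless held a minority of the GJA5 UMIs, with 35.0%, 20.6% and 38.8% of the 20, 34 and 80 UMIs of the 3 days. Cluster 8 held 13 of the 20 at D8 (1.95 CPM), dividing cells held 13 of the 34 at D14 (1.53 CPM), and fibroblast-like cells held 31 of the 80 at D21 (2.77 CPM, 1.88–3.93).

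Within CM-like cells, the make-up of each junction family differed between days. Of the 3215, 4891 and 3725 UMIs of the 4 desmosomal genes, DSP gave 29.7%, 45.8% and 41.4% and PKP2 gave 38.6%, 33.7% and 42.3%. JUP gave 13.9%, 7.20% and 11.8%, and DSG2 gave 17.8%, 13.3% and 4.54% (3.89–5.26% at D21). DSG2 was thus the smallest part at D21, whereas in the other kept cells of that day it gave 20.1% and PKP2 10.9%. Of the 511, 378 and 521 UMIs of the 3 connexin genes, GJA1 gave 64.6% (60.3–68.7%), 41.3% (36.3–46.4%) and 58.5% (54.2–62.8%), and GJC1 gave 35.4%, 58.7% and 40.1%. At D14 GJC1 was therefore the most abundant of these 3 genes in CM-like cells, while in the other kept cells GJA1 gave 74.4%, 70.9% and 73.0%. That D14 order depends on the class limit. In the neighbouring D14 cluster 2 GJA1 gave 62.5% and GJC1 37.3%. D14 barcodes with at least 1500 CPM of TNNT2 plus TTN and under 10% mitochondrial UMIs held 396 GJA1 and 399 GJC1 UMIs. Endothelial-like cells had another mixture, with 32.4%, 37.7% and 56.5% of desmosomal UMIs from JUP, 2.27%, 4.72% and 8.70% from PKP2, and 5.00%, 5.74% and 33.3% of the UMIs of the 3 connexin genes from GJA5, of whose 31 UMIs at D21 1 cell held 21.

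**Figure D3:**
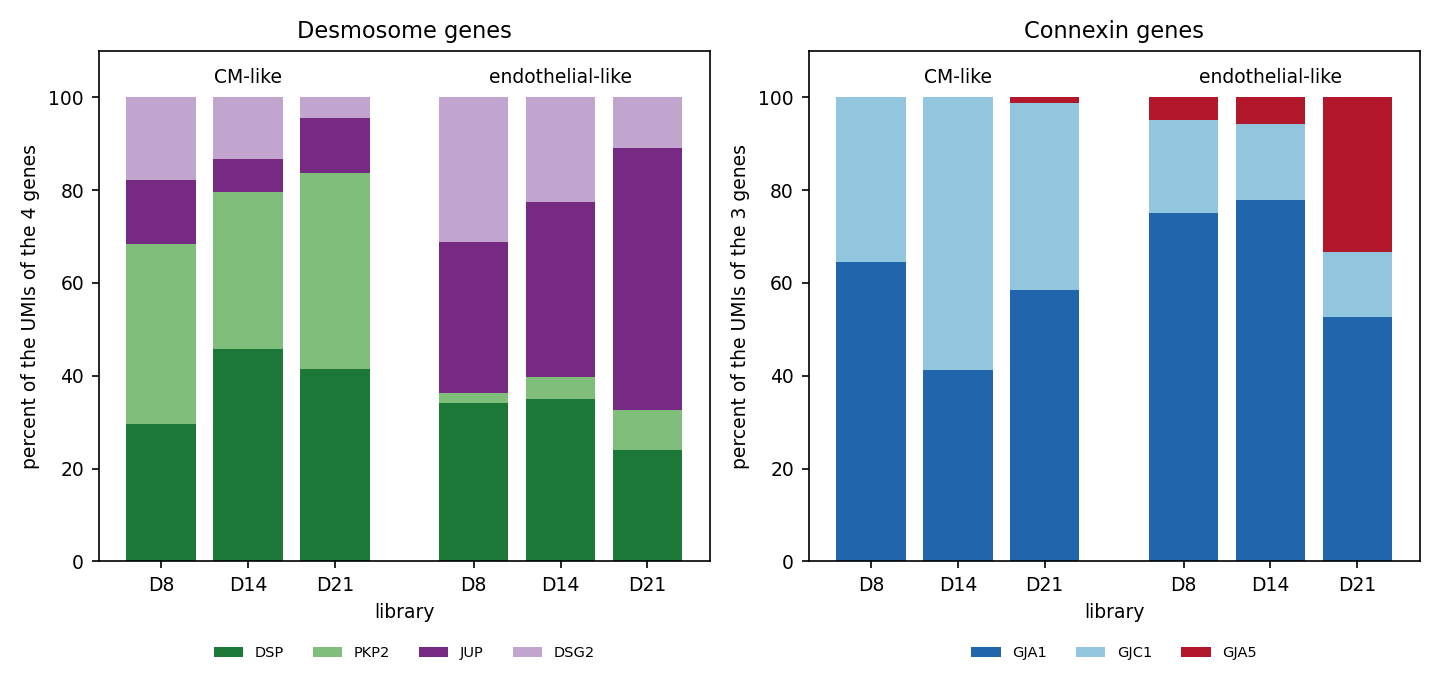
Share (%) of the UMIs of the 4 desmosomal genes and of the 3 connexin genes that each gene gave, in CM-like and endothelial-like cells at each day, in stacked bars from 0 to 100%. DSG2 is 4.54% of the desmosomal UMIs of CM-like cells at D21, and GJC1 is 58.7% of their UMIs of the 3 connexin genes at D14. The D21 endothelial-like share of GJA5 rests largely on 1 cell.

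In single CM-like cells thinned to 4000 UMIs, at least 1 of the 4 desmosomal genes was read in 79.2%, 85.8% and 85.3% of cells and at least 2 in 35.9%, 46.0% and 43.7%. At least 1 of GJA1, GJA5 and GJC1 was read in 23.9%, 13.5% and 23.2% of cells, with D14 the low day as for GJA1, and all 3 together in 0 cells of any day. These shares depend on depth and say nothing of cells in which a gene was present but not captured.

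Many D21 CM barcodes lay outside the mitochondrial limit, so the members were also measured in all D21 barcodes within the gene limits that had at least 1500 CPM of TNNT2 plus TTN. These numbered 732 below 10% mitochondrial UMIs, 1508 at 10 to 20% and 320 at 20% or more, and levels were taken as CPM of the UMIs that were not mitochondrial. CDH2 was at 257, 284 and 388 CPM over the 3 bins, DSP at 211, 274 and 372 CPM, PKP2 at 193, 259 and 312 CPM and CTNNA3 at 57.3, 78.5 and 104 CPM. These 4 genes were each highest in the bin richest in mitochondrial RNA, by log2 ratios of 0.60, 0.82, 0.70 and 0.87 over the lowest bin, while TNNT2, the thin filament gene of the gate, was at 7848, 8339 and 7809 CPM. JUP was at 65.3, 76.7 and 97.0 CPM and GJA1 at 51.0, 49.3 and 85.7 CPM. DSG2, at 32.3, 32.2 and 34.3 CPM (log2 ratio 0.09, -0.26 to 0.43), and GJC1, with a log2 ratio of 0.22 (-0.14 to 0.56), did not differ between the outer bins beyond counting error. The median depth was 13025.5, 12675 and 10340.5 UMIs, and its part in the differences was not tested. With 732 barcodes against 538 CM-like cells at D21, the lowest bin also held cells of other classes. On the same scale CM-like D21 cells held CTNNA3 at 69.1 CPM and JUP at 65.5 CPM, against 57.3 and 65.3 CPM in that bin. The part of other classes in each bin was not tested.

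**Figure D4:**
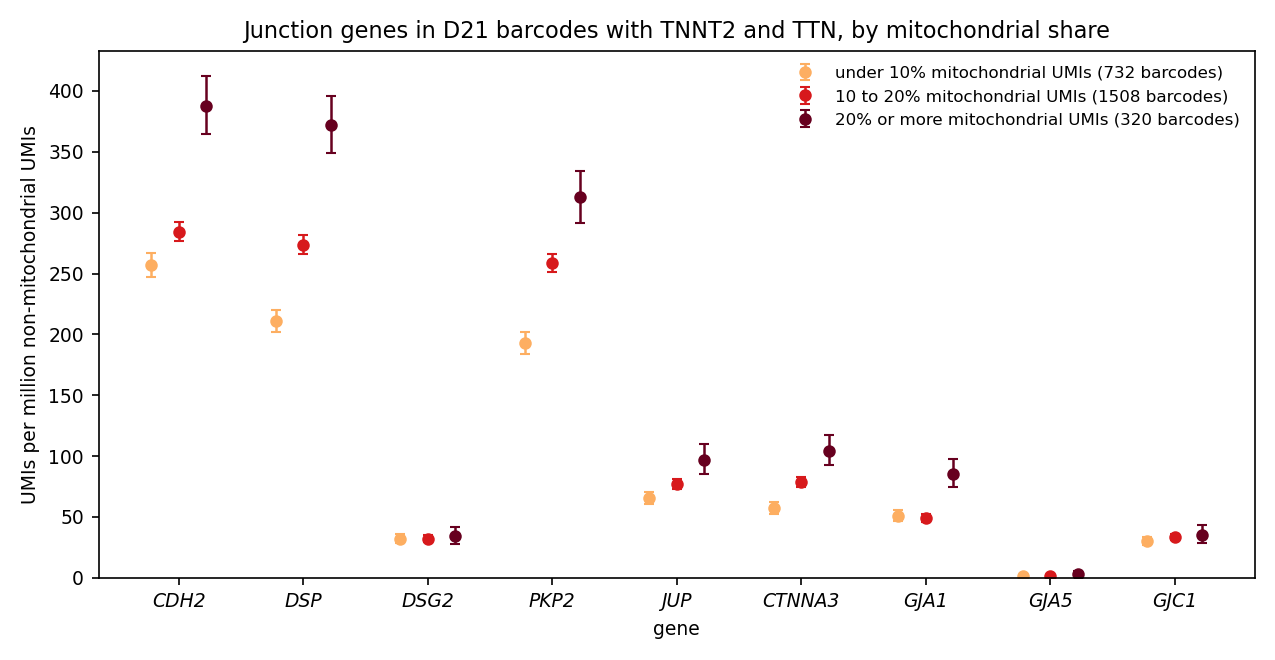
Level of each of the 9 genes in gated D21 CM barcodes (CPM of UMIs that are not mitochondrial, with 95% Poisson intervals) in 3 bins of mitochondrial share. CDH2, DSP, PKP2, CTNNA3 and JUP are highest at 20% or more, and DSG2 stays between 32.2 and 34.3 CPM.

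The genes most like each member were sought over the 21 groups of class or cluster and day with at least 50 cells, among 5265 genes, as a description in which groups of a day share a library. CTNNA3 was closest to SLC25A4 (Pearson r = 0.98), a mitochondrial ADP/ATP carrier, RYR2 (0.98), the calcium release channel of the heart, and RBM24 (0.97), a splicing factor of muscle. PKP2 was closest to CAP2 (0.94), BMP7 (0.92) and FIGN (0.91). DSG2 was closest to PLCXD1 (0.83), then to DSC2 (0.82), the other desmosomal cadherin of the heart, and UNC119 (0.81). CDH2 was closest to DPYSL3, TSPAN5 and DAAM1 (0.84, 0.82 and 0.81), DSP to FAM84B, PAWR and ELF3 (0.85, 0.79 and 0.77), and GJA1 to RAP2B, TYRO3 and SNX2 (0.83, 0.82 and 0.78). GJA5 was closest to TEK (0.96), the receptor TIE2 of endothelial cells, LYL1 (0.96) and PROCR (0.95). Only the D14 group of endothelial-like cells had 50 cells or more, so the GJA5 coefficients rest largely on its 7 GJA5 UMIs. GJA5 and GJC1 also stayed below the 50 CPM asked of the compared genes in all 21 groups. GJC1 was closest to KRR1, CDC5L and RIF1 (0.83, 0.82 and 0.81), and JUP to PTRF, AHNAK and LPP (0.68, 0.66 and 0.65). Between members, the highest coefficients over the 21 groups were 0.72 for CTNNA3 with PKP2 and 0.62 for CTNNA3 with CDH2, and the lowest was -0.57 for GJA5 with PKP2. Desmosomal members were less alike, at 0.53 for DSP with PKP2, 0.25 for DSG2 with DSP and 0.05 for DSG2 with PKP2. JUP was at 0.20 with DSP, 0.17 with PKP2 and -0.30 with DSG2.

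Other junction genes were read from 3 lists to set the members in context. Of 10 further desmosomal genes, 4 reached 10 CPM in CM-like cells of D8 or D14. DES, the intermediate filament protein desmin that desmosomes anchor, was at 14.5, 91.1 and 19.4 CPM on the 3 days and was the 1 gene past 2-fold upward at D14. DSC2 was at 42.7, 38.0 and 9.22 CPM, so that at D21 over D14 it and DES were 2 of 4 past 2-fold downward, DSC2 with a log2 ratio of -2.04 (-2.44 to -1.66). The DSC2 level was thus low on the same day as its partner DSG2, but not in CM-like cells alone. From D14 to D21 DSC2 went from 40.1 to 16.4 CPM in fibroblast-like cells and from 35.1 to 12.5 CPM in dividing cells. In endothelial-like cells it was at 24.9 and 22.2 CPM. DSG2 went from 64.8 to 45.5 CPM in fibroblast-like cells, from 37.4 to 17.1 CPM in endothelial-like cells and from 56.5 to 47.5 CPM in dividing cells. Of 21 further genes of adherens junctions and area composita, 15 were compared at D14 over D8, where 2 were higher (XIRP1 and LDB3) and 2 lower (CDH11 and CDH13), and 14 at D21 over D14, where 1 was higher (LDB3) and 0 lower. XIRP1, an actin-binding protein of the disc, was at 22.7, 112 and 192 CPM, and LDB3, which binds alpha-actinin at the Z-disc, at 88.0, 227 and 740 CPM. CDH11 was at 30.8, 15.2 and 12.9 CPM and CDH13 at 24.4, 6.99 and 3.85 CPM. These shares are to be read against the 10.5% and 3.45% of all genes at D14 over D8 and the 4.91% and 13.8% at D21 over D14.

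Of 16 further connexin and pannexin genes, 2 reached 10 CPM in CM-like cells, GJA3 and PANX2. GJA3, which encodes connexin 46, was the 1 gene past 2-fold upward at D14 over D8. Its D8 level was 0.378 CPM (3 UMIs), its D14 level 49.5 CPM (45.1–54.2) and its D21 level 66.2 CPM (60.4–72.4), with a D14 over D8 log2 ratio of 7.03 (5.48–9.32). At D14 and D21 its UMIs in CM-like cells therefore outnumbered those of GJA1, with 467 against 156 and 481 against 305. PANX2, which encodes a pannexin channel protein, was at 12.0, 22.8 and 11.7 CPM. Compared with the other kept cells, CM-like cells at D21 were at least 2-fold higher for 5 of 16 adherens and area composita genes (TJP1, XIRP1, CXADR, LDB3 and TMEM65) and lower for 3 (CDH1, CDH11 and CDH13). At that day 0 of 5 desmosomal genes were higher and 1 was lower (PKP3), and of 4 connexin and pannexin genes 2 were higher (GJA3 and PANX2) and 2 lower (GJA4 and GJB1), where 12.9% of all genes were higher and 15.5% lower. The same contrast at D14 had 3 of 16 higher (XIRP1, LDB3 and TMEM65), 2 lower (CTNNA2 and CDH1), DES higher among the 4 desmosomal genes and both GJA3 and PANX2 higher, against 8.9% and 8.4% of all genes. At D8 it had 3 of 16 higher (XIRP1, LDB3 and TMEM65), 1 lower (CDH1), DES higher and PERP lower among 4 desmosomal genes and PANX2 higher, against 6.21% and 5.85% of all genes.

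**Figure D5:**
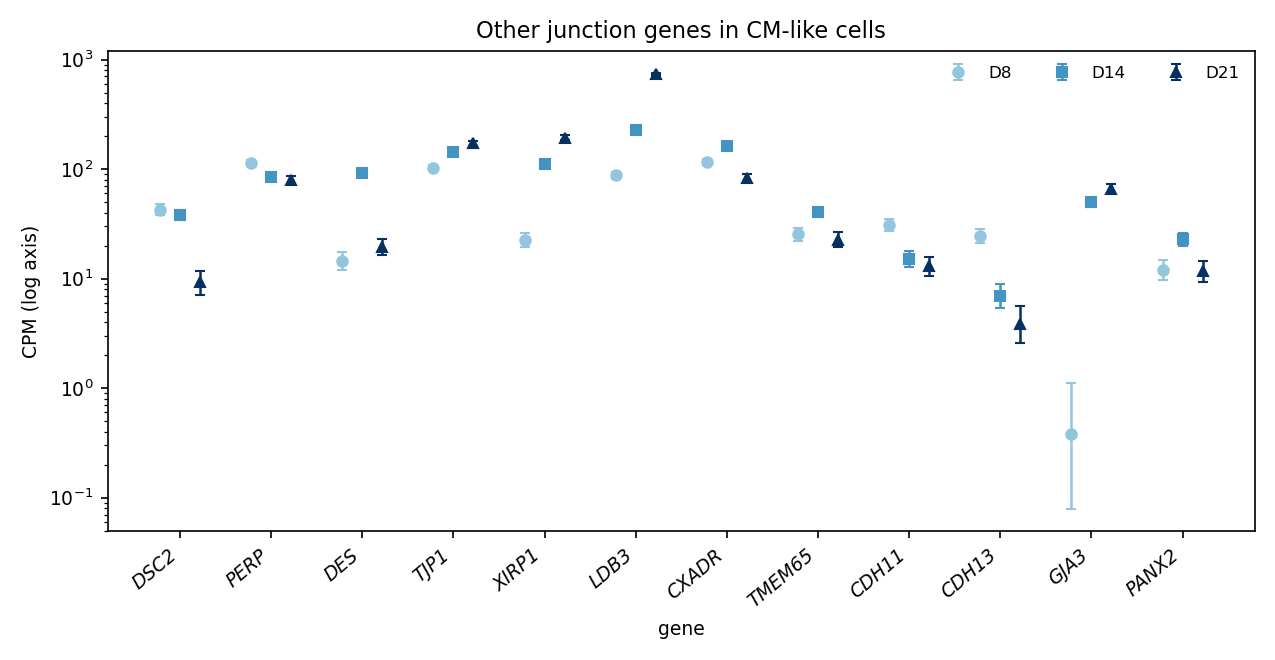
Level (CPM) in CM-like cells of further junction genes past 2-fold between days or over the other cells, at D8, D14 and D21, with 95% Poisson intervals of 1 library per day on a log axis. GJA3 stands at 0.378 CPM at D8 and 49.5 and 66.2 CPM later, LDB3 reaches 740 CPM and DSC2 stands at 9.22 CPM at D21.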

How the data were processed

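CCOs from the H7 line were measured with 10x 3′ v2 chemistry, 1 library per day. A merged table of raw counts of UMIs by gene and barcode is what the authors deposited, and the submitters' processing notes name Cell Ranger, Seurat 3.2.1 and hg19. Barcodes were tied to a day by their suffix. Cells with over 2000 and under 7500 genes and under 10% mitochondrial UMIs were kept, as were genes seen in 10 barcodes or more. With R 4.3.3, Seurat 5.3.0 scaled cells to 10000 UMIs, took 2000 variable genes less 48 that were members, listed junction genes or genes shown by the study (1952 used), and clustered on 20 principal components at resolution 0.8. A cluster was named from at least 3 markers among its differences to the rest (10 CPM added, 20 cells or more) with a lead of 2, 7 of 8 endothelial markers being in the table, and a POU5F1 and SOX2 cluster was left unnamed after its genes were seen. Scrublet in Scanpy 1.11.5 called 1, 1 and 7 cells (0.0376%, 0.0279% and 0.360%), so it did not work here and doublets were kept. UMIs were summed per class and day, with exact Poisson, conditional ratio and Clopper-Pearson intervals (SciPy 1.17.1, Python 3.11.15), and cells were thinned to 4000 UMIs for shares. The named genes were the 9 members, the 3 genes most like each, and listed junction genes past 2-fold, of which 1 listed gene is not reported here. All-gene ratios had 1 count added. Alternatives varied the filters, clustering, class limits, scaling and background. edgeR 4.0.16 gave TMM factors only. With 1 library per day no test was possible, and the scripts were tested on simulated data. Members, lists and alternatives were chosen with earlier results of these data known. Sequence windows came from RefSeq.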

Additional observations from a re-analysis of the deposited data

Results flagged for a closer look

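CDH2 and GJA1 ran in opposite directions in CM-like cells and in another class between the same days, with every interval away from 0, and none of these differences was tested because each day was 1 library. For CDH2 at D14 over D8 the log2 ratio was 1.55 in CM-like cells and -0.85 (-0.998 to -0.698) in cluster 8, where the level was 193 and then 107 CPM, a difference of 2.40. In cluster 13 it was -1.87 (-2.41 to -1.38), from 75.7 to 20.6 CPM, a difference of 3.42 to CM-like cells. For CDH2 at D21 over D14 the log2 ratio was -0.20 in CM-like cells, a sign that other scalings turned, and 2.07 (1.89–2.26) in fibroblast-like cells, a difference of -2.27. The fibroblast-like cells were cluster 10 at D14 and cluster 1 at D21. For GJA1 at D21 over D14 it was 1.34 in CM-like cells and -0.82 (-1.35 to -0.31) in endothelial-like cells, a difference of 2.17.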

How the results depend on the processing

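Counts of members past 2-fold were recomputed under 18 settings between days and 17 within a day; 3 of these, leaving out cluster 18, leaving out barcodes found in more than 1 library, and adding cluster 2 to the CM-like cells, were chosen after seeing the data. Of the counts, the 3 members higher in CM-like cells at D14 held in all 17 settings, and the 4 at D21 ranged from 3 to 5, GJC1 being past 2-fold in 11 of 17. The count higher at D14 than at D8 (2) was 1 over all kept cells and 1 with cluster 2 added. It was 3 under 5% mitochondrial UMIs and 3 with mitochondrial UMIs left out of the total. It was 4 with the lowest class of the library subtracted, DSP and, from 0, GJC1 being added. The count lower at D14 (1, GJA1) was 0 at resolution 0.4, with no gene left out of clustering, with the TNNT2 and TTN gate, over all kept cells and with cluster 2 added. The count higher at D21 than at D14 (1, GJA1) was 0 under 5% mitochondrial UMIs, with 3000 variable genes, with no gene left out, with the gate, over all kept cells and with cluster 2 added. Subtracting the lowest class sets GJA1 to 0 in CM-like cells of D8 and D14 and GJC1 to 0 at D8, where CM-like cells are that class, so by construction it gave 0 lower at D14 and 2 higher at D21, and says nothing of GJA1 there. The count lower at D21 (1, DSG2) was 0 over all kept cells. The count higher in CM-like cells at D8 (1) was 2 under 5% mitochondrial UMIs, with over 1000 genes and with 3000 variable genes, and 4 with the lowest class subtracted. GJA1 at D21 over D14 turned to -0.14 on the log2 scale over all kept cells, and was otherwise between 0.69 and 1.58. CDH2 at D14 over D8 ranged from 0.35 to 1.92 and DSG2 at D21 over D14 from -2.54 to -0.93, each past 2-fold in 17 of 18 settings. The settings left between 35 and 1645 D21 CM-like cells. The cause of these shifts was not tested. With no filter on low genes, the share of all genes past 2-fold upward at D14 over D8 was 14.5%. No paired analysis was possible because there was 1 library per day and the labels carry no replicate numbers. Depth limits statements on GJA5 and on shares of cells.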

Other observations

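Some connexins outside the 9 genes were far more abundant in endothelial-like cells or cluster 11 than elsewhere, and are given as values only. GJA4, which encodes connexin 37 of arterial endothelium, stood at 267 CPM (233–305), 118 CPM (93.2–148) and 452 CPM (399–510) in endothelial-like cells of the 3 days. Its level in cluster 8 was 6.15 CPM (41 UMIs) at D8 and 6.91 CPM (33 UMIs) at D14, and its D21 level in fibroblast-like cells was 2.32 CPM (1.52–3.40). GJB1, which encodes connexin 32 of the liver, was at 129 CPM (121–137) in cluster 11 at D21 and at 4.54 CPM (3.13–6.38, 33 UMIs) in CM-like cells, of which 18 UMIs were in the 50 cells of cluster 18. Cluster 18 had a median depth of 8172 UMIs.

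GJA3 was read in the unnamed D14 cluster 2 at 58.5 CPM as well as in CM-like cells, and GJA3 is among the genes that lead that cluster. Over all other kept cells CM-like cells were 2.80-fold higher (2.48–3.15) at D14 and 6.80-fold higher (5.80–7.99) at D21. GJD2, which encodes connexin 36 and was picked out after its values were seen, gave 55 UMIs in 24 of 538 CM-like cells at D21 (7.57 CPM, 5.70–9.85) and 6 UMIs in all other kept cells of that day, a 29.8-fold ratio (12.9–84.7). It gave 0 UMIs in CM-like cells at D8 and 1 at D14.

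Cluster 17 at D21 (58 cells, led by MYL2 and MYH7B) held the highest CDH2 level of that day, at 274 CPM (244–306), and the next highest CTNNA3 and PKP2 after CM-like cells, at 31.3 and 105 CPM. Its median doublet score was 0.200 against 0.034 over all kept D21 cells, and its median depth was 19310.5 UMIs.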
